A study of Homo sapiens with 6 samples.

Results

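The genes described here are 10 cytokine receptor chains, IL7R, IL4R, IL6ST, IL10RB, IL13RA1, IL1R1, OSMR, LIFR, IFNGR1 and IFNAR1, out of 60605 genes in the table. They were found by matching Ensembl gene identifiers to these symbols, and all 10 had a row. The set was drawn up because of the rise of IL7R, so the comparison of inhibitor with solvent for IL7R is given below as a description with no test. The other 9 are receptors of neighbouring families.

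The study sequenced polyadenylated RNA of HuCCT-1, an established human cell line from a bile duct cancer (cholangiocarcinoma), to ask how inhibition of PRMT5 alters gene expression. PRMT5 methylates arginine residues symmetrically, both on histones and on proteins of the splicing machinery. One group of 3 libraries came from cells kept for 4 days in 6 nM JNJ-64619178, a PRMT5 inhibitor, and the other group of 3 libraries from cells given the solvent DMSO for the same 4 days. Both groups grew in DMEM-F12 medium with serum, and all libraries came from this 1 cell line. No label tells whether replicates were separate cultures, and a p-value then reflects only how far these libraries scatter, a spread that may be technical.

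The libraries held 23931991 to 28224911 counts with JNJ-64619178 and 28133746 to 30691914 with DMSO. Levels below are CPM (counts scaled to a common library size, here with TMM factors), and errors are SD over n = 3 libraries. Fold changes are JNJ-64619178 over DMSO. As the samples are bulk RNA, fewer cells that express a gene and less RNA per cell cannot be told apart. The 8 biliary epithelial markers examined summed to 4571 to 4838 CPM with the inhibitor and 5645 to 5919 CPM with DMSO, with KRT7 at 2842 ± 99.2 CPM with the inhibitor and 3646 ± 100.2 CPM with DMSO. KRT7 fell (log2 fold change -0.36), as did KRT18 (-0.29), KRT8 (-0.22) and KRT19 (-0.15) by edgeR's quasi-likelihood test, while SOX9 rose (0.18). The part of these shifts in the receptor values was not tested.

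Cytokine receptors are built from chains that pair at the cell surface when a ligand binds. IL7R binds the cytokine IL-7 together with IL2RG, the common gamma chain, and binds TSLP together with CRLF2. It is best known as a survival receptor of T lymphocytes. IL6ST, also called gp130, is the shared signalling chain of a family that includes the receptors for IL-6, IL-11, LIF and oncostatin M, and OSMR and LIFR are its partners. IL4R pairs with IL13RA1 in epithelial cells to receive IL-4 and IL-13. IFNAR1 and IFNGR1 belong to the receptors of type I and type II interferon, and IL10RB serves the receptors of IL-10, IL-22 and lambda interferons. All of these carry JAK kinases, which activate STAT transcription factors. IL1R1 belongs to another family and signals through MYD88 and IRAK kinases.

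The window around the RefSeq start of IL7R held no CpG dinucleotide, unlike every window of the other receptors, which is why a stretch of it is shown beside one of IL6ST, the chain at the highest level per kilobase of exon. The sequences are from RefSeq on GRCh38.p14, and only bases before the annotated start that lie in no exon of GENCODE release 29 are printed. Capitals mark CpG dinucleotides. The first stretch is chr5:35856688-35856848 on the plus strand (161 bases, 0 CpG) and the second is chr5:55994994-55995166 on the minus strand (173 bases, 20 CpG). GENCODE release 29 starts IL7R farther upstream, at 35852695, so the IL7R stretch lies inside the gene as annotated there, and 89 exonic bases before the RefSeq start were left out of it. The IL6ST stretch lies just upstream of the GENCODE gene, which starts at 55994993 on that strand.
IL7R: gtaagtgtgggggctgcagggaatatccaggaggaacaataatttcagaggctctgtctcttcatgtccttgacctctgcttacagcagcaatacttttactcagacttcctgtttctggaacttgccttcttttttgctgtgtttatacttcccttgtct
IL6ST: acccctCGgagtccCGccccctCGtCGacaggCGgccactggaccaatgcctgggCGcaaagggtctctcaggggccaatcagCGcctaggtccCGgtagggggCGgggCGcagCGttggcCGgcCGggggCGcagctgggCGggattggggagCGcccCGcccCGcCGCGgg

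Each RefSeq promoter window runs from 250 bases before a gene's start to 50 after it, and the 10 receptors had 17 windows. The IL7R window held 0 CpG, while the median over all 35116 windows was 14 CpG, and 3.96% of windows held none. Its share of G and C, 44.3%, was below the median of all windows (58.7%) but within the range of the other receptors' windows (42.3% to 81.7%), where 1 window of IL1R1 had the same share and 1 of LIFR a lower one. The single windows of IL4R, IL6ST, IL13RA1, IL10RB and OSMR held 42, 36, 35, 25 and 23 CpG. The 2 windows of IFNGR1 held 25 and 29, and those of IFNAR1 held 19 and 30. LIFR and IL1R1 have several starts, with 2 to 51 CpG in the 3 windows of LIFR and 4 to 40 in the 4 windows of IL1R1. Thus each of the other 9 genes had at least 1 window with 23 or more CpG, and IL7R had 1 window with none.

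Some short motifs were searched on both strands of the same windows. TATAAA was found in the IL7R window, in 1 window of IL1R1 and in 1 of LIFR, against 11.5% of all windows. TGTGGT, bound by RUNX factors, was found in the IL7R window, 1 window of IL1R1 and 1 of LIFR, against 13.1% of all windows. TTCNNNGAA, the element bound by STAT dimers, was present in 4 of the 17 windows, those of IL10RB, IL1R1 (1 window) and LIFR (2 windows), against 7.66% of all windows. The interferon-stimulated response element (GAAA and GAAA with NN between them) was present in 0 of the 17 and in 3.57% of all windows. A match shows only that these letters are in the window.

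**Figure D1:**
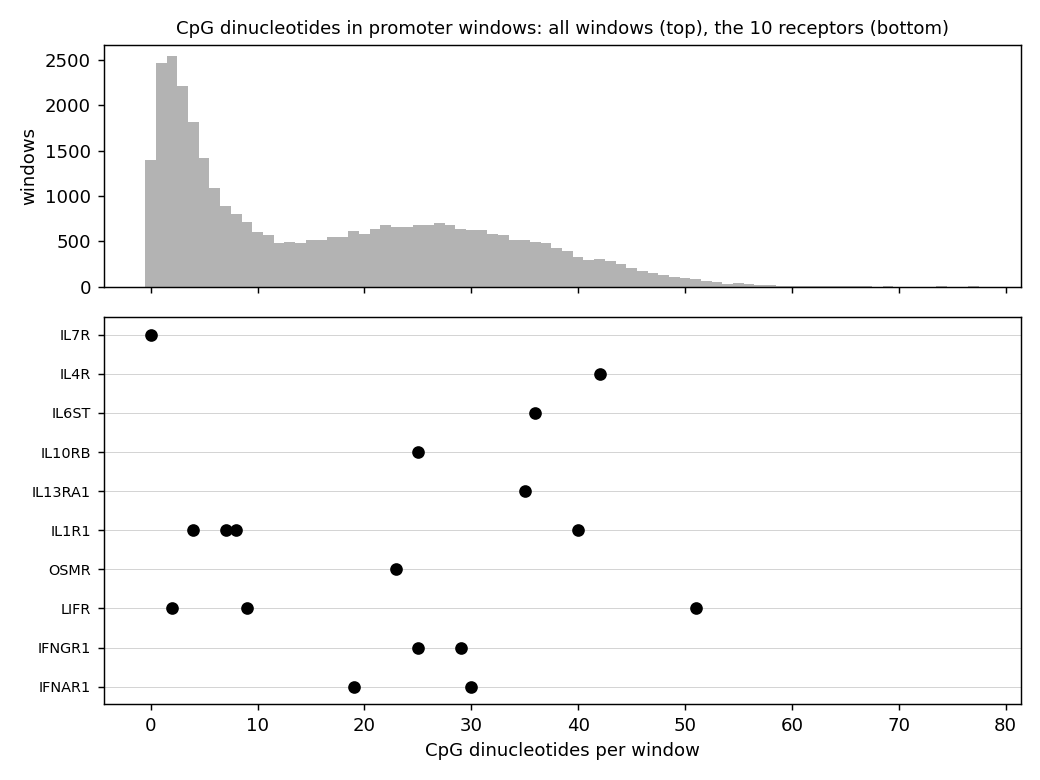
CpG dinucleotides per 300-base promoter window (x axis). The top panel counts all 35116 RefSeq windows (y axis, windows), and each point in the bottom panel is 1 window of a receptor gene. The IL7R window lies at 0, and each other receptor has at least 1 window at 23 or more.

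IL7R had 7.28, 5.77 and 5.42 CPM in the JNJ-64619178 libraries, against 2.04, 1.70 and 1.12 CPM in the DMSO libraries. The lowest inhibitor library lay well above the highest DMSO library. These values rest on 179, 165 and 128 reads with the inhibitor and 61, 47 and 35 reads with DMSO. The mean was 6.16 ± 0.99 CPM with the inhibitor and 1.62 ± 0.47 CPM with DMSO, a 3.80-fold difference and the 30th largest increase among 17371 genes tested, which is the value that chose the set. The log2 fold change was 1.93. It lay between 1.70 and 2.13 when each library was left out in turn. IL7R (ENSG00000168685) lies on chromosome 5 at 35852695 to 35879603 on the plus strand in GENCODE release 29 (GRCh38), and none of its exonic bases are shared with another gene there.

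Of the partners of IL7R, IL2RG was near the limit of detection and CRLF2 could not be assessed. IL2RG had 8, 16 and 8 reads in the inhibitor libraries and 8, 2 and 3 in the DMSO libraries, or 0.41 ± 0.13 CPM with the inhibitor and 0.15 ± 0.11 CPM with DMSO, and did not reach the minimum for testing. CRLF2 was listed at 0 in all libraries. It lies in the pseudoautosomal region, where 16 of 18 protein-coding genes were listed at 0, so its zero does not measure its expression. The ligand IL7 had 0.37, 0.56 and 0.51 CPM with the inhibitor and 0.87, 0.40 and 0.64 CPM with DMSO, with overlapping groups (log2 fold change -0.41, SE 0.39, edgeR adjusted p = 0.442). TSLP had 0, 2 and 0 reads with the inhibitor and 0 in each DMSO library, where 3 reads correspond to 0.096 to 0.13 CPM.

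Because IL7R is best known from T lymphocytes, the markers of that lineage are given beside it. CD3G and CD2 had 0 reads in all 6 libraries, CD3D had 1 and CD3E 3 reads, all in inhibitor replicate 2, and PTPRC had 0, 1 and 1 reads with the inhibitor and none with DMSO. LCK, a kinase of T cell receptor signalling, had 4.61 ± 0.51 CPM with the inhibitor and 1.93 ± 0.33 CPM with DMSO and rose (log2 fold change 1.26, SE 0.18, edgeR adjusted p = 4.03e-06). It made up most of the sum over the 10 markers, which was 5.26 to 6.10 CPM with the inhibitor and 2.22 to 3.30 CPM with DMSO. CD247 (log2 fold change 0.59) and CD8A (0.32) did not pass the test. The 5 fibroblast markers summed to 0.73 to 1.63 CPM with the inhibitor and 0.55 to 0.90 CPM with DMSO, with LUM not called (0.35), and the 4 endothelial markers to 0.89 to 1.33 CPM with the inhibitor and 0.64 to 1.05 CPM with DMSO, with VWF not called (0.55).

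**Figure D2:**
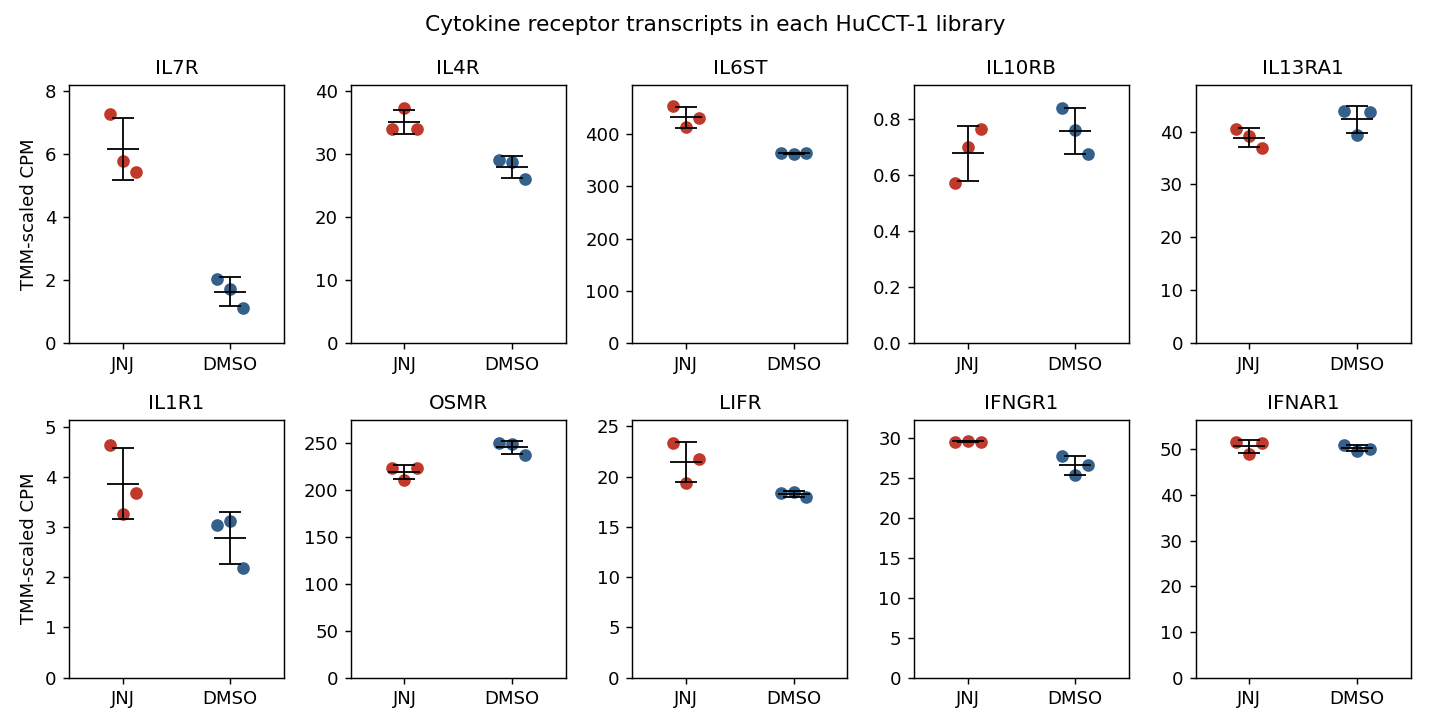
TMM-scaled CPM (y axis, from 0, a scale for each panel) of the 10 receptor genes in 3 libraries with JNJ-64619178 (JNJ, red) and 3 with DMSO (blue). Bars give the mean and SD. The groups are apart for IL7R, IL4R, IL6ST, IL1R1, OSMR, LIFR and IFNGR1 and overlap for IL10RB, IL13RA1 and IFNAR1.

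Of the other 9 receptors, all of which had enough counts to be tested, 4 rose and 1 fell by edgeR's quasi-likelihood test at an adjusted p under 0.05 over all genes. Over all 17371 genes 37.1% were called, 20% higher and 17.1% lower. The groups did not overlap for 6 of the 9 receptors, 5 of them higher and 1 lower, against 47% of all genes, 24.7% higher and 22.2% lower. The median log2 fold change of the 9 was 0.15, beside 0.0014 over all genes. The 4 called higher became 2 on leaving out DMSO replicate 1 or 3 or JNJ replicate 1 or 3, and the 1 called lower became 2 without DMSO replicate 2. The changes of the 9 were small next to that of IL7R, the largest being 1.39-fold. With upper-quartile scaling, which moved the median of all genes by -0.06 on the log2 scale, 2 of the 9 rose and 2 fell, and the calls over all genes were 2800 higher and 4099 lower in place of 3478 and 2970.

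IL4R, the signalling chain shared by the IL-4 and IL-13 receptors, had 33.9, 37.3 and 34.0 CPM in the inhibitor libraries, against 29.02, 28.8 and 25.9 CPM in the DMSO libraries. All inhibitor libraries were above all DMSO libraries, and the gene rose by 0.33 on the log2 scale (SE 0.06, edgeR adjusted p = 0.000226). Its partner IL13RA1, which binds IL-13, had 40.5, 39.1 and 37.0 CPM with the inhibitor and 43.9, 39.4 and 43.6 CPM with DMSO. The groups overlapped and it was not called (log2 fold change -0.12, SE 0.06, adjusted p = 0.108). It was called lower with upper-quartile scaling (-0.18, adjusted p = 0.0161) and without DMSO replicate 2 (adjusted p = 0.0458).

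IL13RA2, a decoy that binds IL-13 and lacks a signalling tail, moved most among the partner chains tested. It had 3.09, 2.83 and 3.22 CPM in the inhibitor libraries, against 0.30, 1.09 and 0.80 CPM in the DMSO libraries, from 76, 81 and 76 reads and 9, 30 and 25 reads. Every inhibitor library was above every DMSO library. It rose by 2.06 on the log2 scale (SE 0.28, edgeR adjusted p = 2.32e-06), with log2 fold changes between 1.69 and 2.44 over the alternative settings and left-out libraries. STAT6, the transcription factor activated by IL-4 and IL-13, averaged 327 ± 8.32 CPM with the inhibitor and 215 ± 6.10 CPM with DMSO and rose by 0.61 (SE 0.04, adjusted p = 8.35e-11).

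In the gp130 family the shared chain rose. IL6ST had 454, 414 and 431 CPM in the inhibitor libraries, against 364, 362 and 365 CPM in the DMSO libraries, which were closely alike. The log2 fold change was 0.25 (SE 0.04, edgeR adjusted p = 8.92e-05). The oncostatin M receptor chain OSMR went the other way, with 224, 211 and 224 CPM with the inhibitor and 249.8, 249.4 and 237.5 CPM with DMSO. Every inhibitor library lay below every DMSO library, and OSMR fell by 0.16 on the log2 scale (SE 0.04, adjusted p = 0.00604).

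LIFR, the chain that binds LIF and pairs with IL6ST, had 23.3, 19.3 and 21.7 CPM in the inhibitor libraries, against 18.3, 18.5 and 17.9 CPM in the DMSO libraries. The groups were apart by a narrow margin, and LIFR rose by 0.23 on the log2 scale (SE 0.08, edgeR adjusted p = 0.0202). This call was lost with upper-quartile scaling (adjusted p = 0.0759), without DMSO replicate 1, 2 or 3 (0.0543, 0.0529 and 0.0756) and without JNJ replicate 1 or 3 (0.118 and 0.0607).

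The private chains of the gp130 family, which give each receptor its ligand, changed in both directions. IL11RA, the IL-11 receptor chain, had 37.3, 41.4 and 43.1 CPM with the inhibitor and 29.8, 30.2 and 28.5 CPM with DMSO, and rose by 0.46 (SE 0.06, edgeR adjusted p = 2.26e-06). IL27RA, a chain of the IL-27 receptor, rose by 0.79 (6.38 ± 1.16 CPM with the inhibitor and 3.69 ± 0.18 CPM with DMSO), and IL31RA, which pairs with OSMR to receive IL-31, rose by 0.24 (37.3 ± 2.83 CPM with the inhibitor and 31.7 ± 0.71 CPM with DMSO). IL6R, the IL-6 binding chain, fell by 0.31 (11.7 ± 0.90 CPM with the inhibitor and 14.6 ± 1.13 CPM with DMSO, adjusted p = 0.00863), and this call was lost without DMSO replicate 1 (adjusted p = 0.053). CNTFR had at most 2 reads in any library and was not tested.

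RNA of several ligands of this family was present in the same libraries, and it also went both ways. IL11 averaged 47.7 ± 3.56 CPM with the inhibitor and 33.5 ± 1.44 CPM with DMSO and rose by 0.51 (SE 0.06, edgeR adjusted p = 3.70e-07). IL6, at 124 ± 2.51 CPM with the inhibitor and 142 ± 11.4 CPM with DMSO, fell by 0.20, and LIF, at 97.9 ± 5.12 CPM with the inhibitor and 108 ± 5.02 CPM with DMSO, fell by 0.15. EBI3, a subunit of IL-27, rose by 0.96 (SE 0.35, edgeR adjusted p = 0.0315). It had 0.86 ± 0.14 CPM with the inhibitor and 0.44 ± 0.01 CPM with DMSO, from 25, 23 and 18 reads and 13, 12 and 14 reads. IL6, LIF and EBI3 were not among the 4 ligands with the smallest p. They were chosen after their values were seen, because their receptor chains are described here.

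In the receptors of type I and type II interferon, IFNAR2 and IFNGR2 rose while IFNAR1 and IFNGR1 were not called. IFNGR2 had 57.6, 57.4 and 55.3 CPM in the inhibitor libraries, against 37.2, 36.6 and 40.1 CPM in the DMSO libraries. It rose by 0.58 on the log2 scale (SE 0.05, edgeR adjusted p = 7.27e-09). IFNGR1, its ligand-binding partner, had 29.5, 29.7 and 29.5 CPM with the inhibitor and 27.7, 25.4 and 26.7 CPM with DMSO. The groups did not overlap, but the difference missed the threshold (log2 fold change 0.15, SE 0.06, adjusted p = 0.0575) and stayed at or above 0.0528 in all 13 alternative fits.

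IFNAR2, which binds type I interferon with high affinity, had 13.5, 12.7 and 9.79 CPM with the inhibitor and 8.75, 7.79 and 7.29 CPM with DMSO, and rose by 0.60 (SE 0.11, edgeR adjusted p = 0.00020). IFNAR1 had 51.6, 49.0 and 51.5 CPM with the inhibitor and 51.1, 49.7 and 50.2 CPM with DMSO, with overlapping groups (log2 fold change 0.01, SE 0.05, adjusted p = 0.901). The difference between the chains of a pair was not tested. Neither chain of the lambda interferon receptor, IL10RB or IFNLR1, was called (IFNLR1 -0.05, 11.04 ± 1.38 CPM with the inhibitor and 11.5 ± 1.09 CPM with DMSO).

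IL10RB had 14, 20 and 18 reads in the inhibitor libraries and 25, 21 and 21 in the DMSO libraries, or 0.68 ± 0.10 CPM with the inhibitor and 0.76 ± 0.08 CPM with DMSO. The groups overlapped and it was not called (log2 fold change -0.16, SE 0.32, edgeR adjusted p = 0.74). In GENCODE release 29, 38.1% of its exonic bases and 44.2% of those of IFNAR2 are also exons of AP000295.1, a gene that spans both on the same strand. A further overlap, of 39.1% of the exonic bases of IFNAR2, is with IL10RB-DT on the opposite strand, and whether reads were counted by strand is unknown here. The authors' rule for such reads was not stated in the labels, and the levels of IL10RB and IFNAR2 may be too low or, for IFNAR2, hold reads of IL10RB-DT. Smaller overlaps on the opposite strand were those of IL6ST (8.58% of exonic bases), IL4R (5.75%), LIFR (5.30%), OSMR (3.19%) and IL1R1 (0.16%), where the same limit holds. The other listed chains of the IL-10 family of receptors were not called. These were IL22RA1 (log2 fold change 0.10), IL10RA (0.31), IL20RA (-0.26) and IL20RB (-0.26). IL10RA had only 10 to 20 reads a library (SE 0.40), so its test could show little. IL20RB was called lower without JNJ replicate 2 (adjusted p = 0.0449) and with upper-quartile scaling (0.0411).

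IL1R1, the signalling receptor for IL-1, had 4.64, 3.25 and 3.69 CPM in the inhibitor libraries, against 3.05, 3.12 and 2.18 CPM in the DMSO libraries. The lowest inhibitor library was just above the highest DMSO library, and the gene rose by 0.47 on the log2 scale (SE 0.18, edgeR adjusted p = 0.0459). This call was lost in 8 of 13 alternatives, namely on dropping DMSO replicate 1 (adjusted p = 0.0509) or 3 (0.224) or JNJ replicate 1 (0.234) or 3 (0.0665), and with DESeq2 (0.0841), limma-voom (0.0501), RLE (0.0503) and upper-quartile scaling (0.0761). Its co-receptor IL1RAP, at 35.5 ± 2.90 CPM with the inhibitor and 36.8 ± 1.72 CPM with DMSO, was not called (-0.05). The decoy IL1R2, at 1.31 ± 0.11 CPM with the inhibitor and 0.82 ± 0.20 CPM with DMSO, was not called either (log2 fold change 0.69, SE 0.29, adjusted p = 0.0619), though with the filter of CPM above 1 it was (0.0427).

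The ligands of IL1R1 were abundant and rose in part. IL1A, the most abundant, averaged 296 ± 7.34 CPM with the inhibitor and 278 ± 5.84 CPM with DMSO and was not called (log2 fold change 0.09, edgeR adjusted p = 0.0996); it was named after its value was seen. IL1B had 148, 159 and 162 CPM with the inhibitor and 114, 102 and 103 CPM with DMSO, and rose by 0.56 (SE 0.05, edgeR adjusted p = 4.17e-09). IL1RN, the antagonist that occupies the same receptor, had 94.9 ± 4.43 CPM with the inhibitor and 67.9 ± 4.28 CPM with DMSO and rose by 0.48. IFNE, an epithelial type I interferon, fell by 0.89 (6.09 ± 0.85 CPM with the inhibitor and 11.3 ± 0.55 CPM with DMSO, adjusted p = 7.89e-07). Of 28 ligands listed, 13 were tested, 4 rose and 3 fell, so 53.8% of those tested were called, beside 37.1% of all genes. IFNG, IFNA1, IL4, IL22, IL26 and IL31 had 0 reads in all libraries, which allows up to 0.13 CPM in a library.

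**Figure D3:**
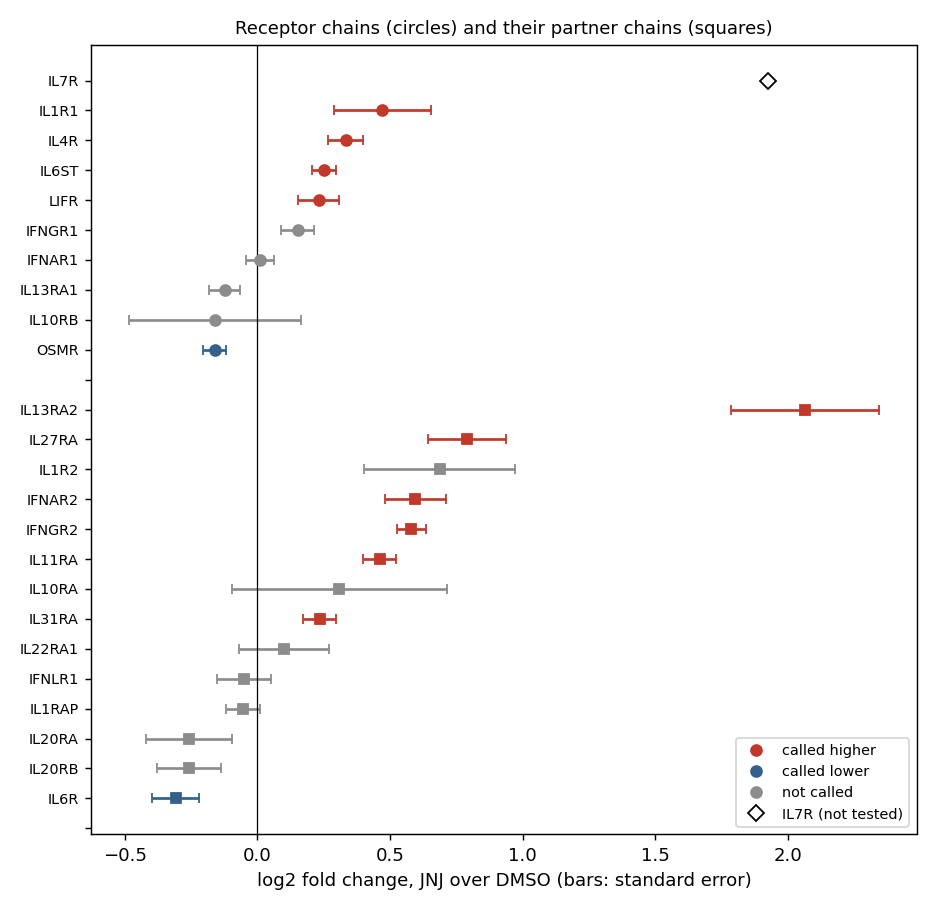
Log2 fold change, JNJ-64619178 over DMSO (x axis), of the 10 receptors (circles, IL7R as an open diamond with no test) and the 14 partner chains tested (squares). Bars are standard errors and colours give edgeR's call. IL7R and IL13RA2 stand near 2, and every other chain lies between -0.31 and 0.79.

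Of the 17 partner chains listed, 14 were tested, 6 rose (IL13RA2, IL27RA, IFNAR2, IFNGR2, IL11RA and IL31RA) and 1 fell (IL6R), with a median log2 fold change of 0.27. Among 28 other cytokine receptors, which include IL-17 receptor chains, 12 were tested, 1 rose and 2 fell, with a median of 0.05. Called were 50% of the partner chains tested and 25% of these other receptors, beside 37.1% of all genes. IL17RE, a chain of the IL-17C receptor, rose by 0.80 (3.0 ± 0.28 CPM with the inhibitor and 1.73 ± 0.14 CPM with DMSO), and the leptin receptor LEPR fell by 0.54 (6.10 ± 0.62 CPM with the inhibitor and 8.81 ± 0.10 CPM with DMSO). IL18R1 fell by 0.27, a call (adjusted p = 0.0468) that was lost by DESeq2 (0.0771), by limma-voom (0.0651), without DMSO replicate 1 or 2 (0.25 and 0.0903) and without JNJ replicate 1 or 3 (0.129 and 0.124). IL17RC was not called (0.39, adjusted p = 0.0713) except without JNJ replicate 1 (0.00893).

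Levels were compared between genes per kilobase of exon. With JNJ-64619178, IL6ST was at 46.6 ± 2.13 CPM per kilobase and OSMR at 30.6 ± 1.03. IFNGR1 (9.02 ± 0.03), IL13RA1 (8.88 ± 0.41), IFNAR1 (8.05 ± 0.23) and IL4R (5.95 ± 0.33) followed, then LIFR (1.81 ± 0.17), IL7R (1.02 ± 0.16), IL1R1 (0.54 ± 0.10) and IL10RB (0.15 ± 0.02). Only IFNGR1 and IL13RA1 overlapped with each other in range among the 9 pairs of neighbours in this order. With DMSO, IL6ST was at 39.2 ± 0.13 and OSMR at 34.2 ± 0.98 CPM per kilobase, and the order was otherwise IL13RA1, IFNGR1, IFNAR1, IL4R, LIFR, IL1R1, IL7R and IL10RB. There the ranges of IFNGR1 and IFNAR1 overlapped, as did those of IL1R1 (0.39 ± 0.07) and IL7R (0.27 ± 0.08).

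IL7R thus stood at rank 8 of the 10 with the inhibitor and at rank 9 with DMSO, at the 19.8th and the 8.07th percentile of protein-coding genes tested. The order depended in part on the length used. With the length of the longest transcript in place of all exonic bases, OSMR (44.3 ± 1.26 CPM per kilobase) stood above IL6ST (40.2 ± 0.14) with DMSO, IL7R was last there, in overlap with IL10RB, and IL4R stood above IFNAR1 with the inhibitor.

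**Figure D4:**
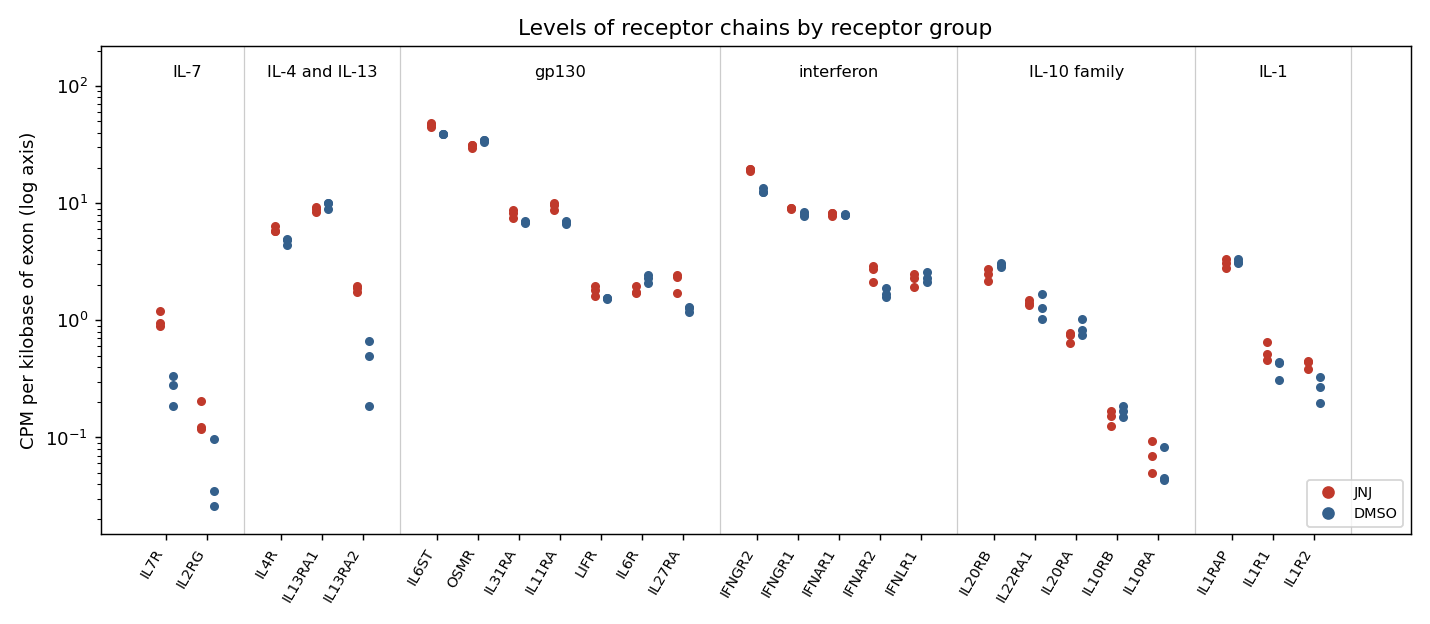
CPM per kilobase of exon (y axis, log axis) of receptor chains in each library, with JNJ-64619178 in red and DMSO in blue, grouped by receptor. IL6ST and OSMR lie highest, and IL2RG, IL10RA and IL10RB lie lowest.

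Downstream of the receptors, most genes of the JAK and STAT list, which also holds IRF9, rose. Of its 12 genes, all tested, 9 rose and 0 fell, with a median log2 fold change of 0.31. Over all genes 20% were called higher and 17.1% lower. None of the list was lower at an unadjusted p under 0.05, and DESeq2 and limma-voom each called 0 lower too. With upper-quartile scaling 8 rose and 0 fell. JAK2, which serves the interferon gamma and gp130 receptors, had 37.5, 31.6 and 33.1 CPM with the inhibitor and 20.5, 20.0 and 17.8 CPM with DMSO, and rose by 0.81 (SE 0.07, edgeR adjusted p = 4.53e-09). STAT2, part of the type I interferon response, rose by 0.46 (209 ± 1.43 CPM with the inhibitor and 152 ± 4.36 CPM with DMSO), and TYK2, a kinase bound to IFNAR1, rose by 0.30 (107 ± 4.91 CPM with the inhibitor and 86.4 ± 3.80 CPM with DMSO). JAK1 (0.06) and STAT4 (0.31) were among those not called. JAK1, which binds IL7R, and STAT4 were chosen after their values were seen.

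JAK3, the kinase of the common gamma chain, had 2.28, 3.22 and 3.01 CPM with the inhibitor and 2.21, 1.59 and 0.996 CPM with DMSO. It rose by 0.83 (SE 0.24, edgeR adjusted p = 0.00781) with groups barely apart. STAT5A and STAT5B, which transmit the IL-7 signal, rose by 0.25 and 0.17. These 3 were likewise chosen after their values were seen, as parts of the IL-7 receptor pathway.

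In the IL-1 branch 6 of 12 adaptors rose and 0 fell, with a median of 0.19. These are 50% of the 12, beside 37.1% called over all genes, 20% higher and 17.1% lower. The kinase IRAK2 had 115, 121 and 115 CPM with the inhibitor and 78.1, 78.9 and 77.4 CPM with DMSO, and rose by 0.58 (SE 0.05, edgeR adjusted p = 3.65e-10). TAB3 (0.33), the inhibitory receptor SIGIRR (0.30) and the adaptor MYD88 (0.30) rose too. None of the 12 was lower at an unadjusted p under 0.05, and DESeq2 and limma-voom each called 0 lower.

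Of 17 inhibitors of receptor signalling, 16 were tested, 4 rose and 0 fell, with a median of 0.05. These are 25% of those tested, below the 37.1% called over all genes and near the 20% called higher. None was lower at an unadjusted p under 0.05, nor by DESeq2 or limma-voom, but with upper-quartile scaling 2 rose and 3 fell. PIAS3, an inhibitor of STAT3, had 139, 146 and 154 CPM with the inhibitor and 84.0, 88.0 and 82.9 CPM with DMSO. It rose by 0.79 (SE 0.05, edgeR adjusted p = 6.06e-12). SOCS7 rose by 0.69, at 77.3 ± 1.64 CPM with the inhibitor and 47.9 ± 0.99 CPM with DMSO. PIAS2 rose by 0.22, a call lost with upper-quartile scaling (adjusted p = 0.0689), without DMSO replicate 3 (0.108) and without JNJ replicate 1 (0.0519). SOCS3, the feedback inhibitor of IL6ST, was at 66.9 ± 1.01 CPM with the inhibitor and 61.1 ± 2.46 CPM with DMSO. Its call (log2 fold change 0.13, adjusted p = 0.0418) did not hold in 11 of 13 alternatives. Dropping any 1 library lost it, DMSO replicates 1, 2 and 3 (0.0761, 0.0855 and 0.236) as well as JNJ replicates 1, 2 and 3 (0.051, 0.0842 and 0.0796).

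ADAM17, a protease that sheds IL6R from the cell surface, fell by 0.22 (86.2 ± 2.56 CPM with the inhibitor and 100.1 ± 2.88 CPM with DMSO, edgeR adjusted p = 0.000723). The related protease ADAM10 rose by 0.13 (148 ± 7.45 CPM with the inhibitor and 135 ± 3.80 CPM with DMSO), a call lost in 8 of 13 alternatives. These were dropping DMSO replicate 1 (adjusted p = 0.156) or 2 (0.14) or JNJ replicate 1 (0.0695) or 3 (0.176), upper-quartile scaling (0.244), DESeq2 (0.0502), no filter on low counts (0.0777) and a replicate block (0.0508).

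**Figure D5:**
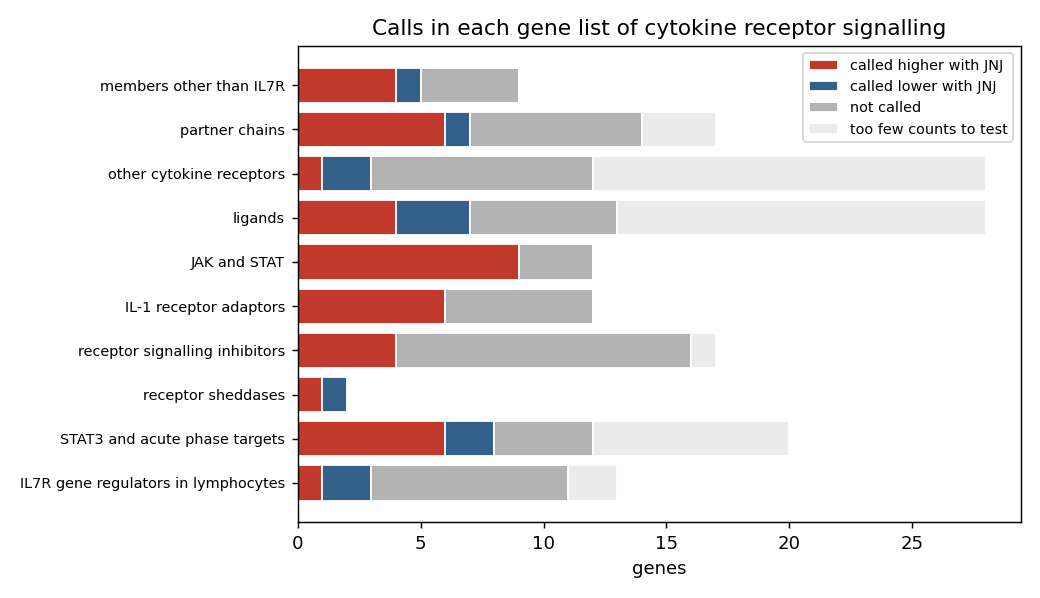
Number of genes (x axis) in each list that edgeR called higher or lower with JNJ-64619178, did not call or could not test for too few counts. The lists of JAK and STAT genes, IL-1 receptor adaptors and signalling inhibitors held 9, 6 and 4 genes called higher and none called lower. Over all genes 20% were called higher and 17.1% lower. For the inhibitors the share called higher is near that of all genes, and with upper-quartile scaling 3 of the inhibitors were called lower.

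The genes whose profile over the 6 libraries was nearest to that of IL7R were sought among 11460 protein-coding genes (mean log2 CPM 1 or more), by the Euclidean distance of log2 CPM after subtracting each gene's mean. The distance takes in the difference between the groups that chose the set, so a near profile need mean no more than a rise of like size. The 5 nearest were the chemokine CCL22 (distance 0.47), the matrix protease MMP10 (0.50), the interferon-induced IFI44 (0.50), the cilium component RSPH1 (0.54) and the endoribonuclease ENDOU (0.55). They rose 3.06-fold (IFI44) to 3.75-fold (MMP10), beside 3.80-fold for IL7R, and likeness within a group was not tested. IFI44 averaged 126 ± 8.86 CPM with the inhibitor and 41.3 ± 5.76 CPM with DMSO, and CCL22 8.66 ± 0.40 CPM with the inhibitor and 2.36 ± 0.41 CPM with DMSO.

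Around IL7R on chromosome 5, the nearest gene tested was SPEF2, a sperm flagellum gene 38.1 kb to the left, which rose by 0.47 (22.7 ± 2.86 CPM with the inhibitor and 16.3 ± 1.02 CPM with DMSO, edgeR adjusted p = 0.000117). Farther left, DNAJC21 (-0.12, 894 kb away) and BRIX1 (-0.001, 927 kb away) were not called. On the right, LMBRD2 (-0.18, 219 kb away) and SKP2 (-0.16, 272 kb away) were not called and NADK2 (313 kb away) rose by 0.30. With upper-quartile scaling DNAJC21, LMBRD2 and SKP2 were called lower (adjusted p 0.0121, 0.0343 and 0.00932). DNAJC21 was also called without JNJ replicate 1 (0.0396), and SKP2 without DMSO replicate 2 (0.0484) or JNJ replicate 1 (0.049), with RLE scaling (0.0469) and with the filter of CPM above 1 (0.0496).

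IFNAR2, IL10RB, IFNAR1 and IFNGR2 lie side by side on chromosome 21. Of the tested protein-coding genes nearest to this cluster, GART (24.6 kb away) rose by 0.15. PAXBP1 (458 kb away) and DNAJC28 (6.18 kb away) fell by 0.13 and 0.82. TMEM50B (-0.07), SYNJ1 (0.04, 502 kb away) and CFAP298 (-0.22, 617 kb away) were not called. The GART call was lost without DMSO replicate 2 (adjusted p = 0.053) or JNJ replicate 3 (0.0606) and with upper-quartile scaling (0.109). That of PAXBP1 was lost without DMSO replicate 2 (0.183) or JNJ replicate 2 or 3 (0.109 and 0.124) and with a replicate block (0.0655). That of DNAJC28 was lost without DMSO replicate 1 or 3 (0.0732 and 0.103) or JNJ replicate 1 or 3 (0.151 and 0.0913) and by DESeq2 (0.0592). TMEM50B shares exonic bases with IFNGR2 on the opposite strand (12.8% of those of IFNGR2), so without stranded counting reads of the pair cannot be told apart.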

How the data were processed

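The deposited file is 1 table of raw counts, not normalized, by Ensembl gene and library (6 in all). The submitters' processing notes list STAR 2.7.9a and featureCounts 1.6.0 among the tools, without their settings, and name the build GRCm39 although all identifiers are human. The 44 repeated identifiers had 0 counts and were dropped. Of 60605 genes, 60463 took a symbol from the reference table and 130 from GENCODE release 29. Genes were kept with filterByExpr (minimum count 10, total 15), scaled by TMM and tested with edgeR 4.0.16 (glmQLFit, glmQLFTest, group alone, Benjamini-Hochberg over all genes). Replicate pairs differed beyond sampling noise (ratio of chi-square to its degrees of freedom 2.56 to 8.09). Simulated counts of 17071 genes held 98 genes changed 1.5-fold and 98 changed 2-fold. Of these 62.2% and 82.7% were recovered, with 8 unchanged genes called. In the data a far larger share, 37.1%, was called, so these figures do not measure the power of the comparison. Alternatives were RLE and upper-quartile scaling, DESeq2 1.42.0, limma-voom (limma 3.58.1), other filters, a replicate block and leaving out each library. The members and lists were chosen with earlier results of these data known. The naming rules took all members, all tested partner chains and the 4 genes with the smallest p in each list, or fewer where fewer were tested. They also took the 5 profiles nearest to IL7R and the 3 tested neighbours on each side of IL7R and of the interferon receptor cluster. JAK3, STAT5A, STAT5B, JAK1, STAT4, IL1A, IL6, LIF and EBI3 were added after their values were seen, and KRT19 was named outside the rules too. R 4.3.3 and Python 3.11.15 were used.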

Additional observations from a re-analysis of the deposited data

How the results depend on the processing

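Over the 13 alternatives the number of genes called lay between 5304 and 6899, beside 6448. Of the 9 receptors other than IL7R, 2 were called higher and 2 lower with upper-quartile scaling. Leaving out 1 library gave 2 to 4 called higher and 1 to 2 called lower. The alternatives were followed for genes picked by the naming rules, and 53 of those followed were called. Of these, 42 kept their call in all alternatives, and 0 changed direction. They include GBP2, GBP4, ICAM1 and TAP1 from a list of interferon gamma targets that is not described here. JAK3, STAT5A, STAT5B, IL6, LIF, EBI3 and KRT19 were named outside those rules and were not followed. How well their calls hold is thus not known. Among the uncalled genes, IFNAR1 changed sign with upper-quartile scaling (-0.049), with no filter (-0.0014) and between left-out libraries (-0.0053 to 0.035), and SYNJ1 with upper-quartile scaling (-0.020) and left-out libraries (-0.0096 to 0.080). With left-out libraries IL22RA1 (-0.056 to 0.29), IFNLR1 (-0.14 to 0.041), IL1RAP (-0.11 to 0.0095) and BRIX1 (-0.062 to 0.075) also crossed 0, and the cause was not tested. With the replicate block 6132 genes were called, 4 receptors were higher and 1 lower, and IL7R had a log2 fold change of 1.93. Between the groups, deviations of libraries with the same number correlated at -0.12, -0.03 and -0.0083. Those with different numbers correlated at -0.10 to 0.13. With 3 libraries a group, this cannot tell whether the samples were paired. Among the 10 receptors, the depth limits IL10RB most, at 14 to 25 reads a library.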

Other observations

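Genes known to respond to these receptors moved in both directions. Of 20 STAT3 and acute phase targets, 12 were tested, 6 rose and 2 fell, with a median log2 fold change of 0.12 beside 0.0014 over all genes. Over all genes 20% were called higher and 17.1% lower. The 6 include IL6ST, itself 1 of the receptors described above, and SOCS3, whose call was lost in 11 of 13 alternatives. JUNB, a transcription factor, averaged 407 ± 23.7 CPM with JNJ-64619178 and 329.9 ± 11.98 CPM with DMSO (n = 3 each) and rose by 0.30 by edgeR's quasi-likelihood test, and TIMP1, an inhibitor of matrix proteases, rose by 0.29. SAA2, a serum amyloid A gene, fell by 0.71 (22.1 ± 0.89 CPM with the inhibitor and 36.2 ± 1.32 CPM with DMSO), and its counts may be shared with the near-identical SAA1.

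Among 13 transcription factors known to act on the IL7R gene, chiefly in lymphocytes, 11 were tested, 1 rose and 2 fell. These are 27.3% of those tested, below the 37.1% called over all genes. NFKB1 rose by 0.34 (65.5 ± 3.36 CPM with JNJ-64619178 and 51.9 ± 1.84 CPM with DMSO, n = 3 each). RUNX1 fell by 0.28 (176 ± 7.10 CPM with the inhibitor and 213 ± 4.35 CPM with DMSO). FOXP1 fell by 0.20, a call lost without DMSO replicate 2 (adjusted p = 0.0841 by edgeR) and without JNJ replicate 1 or 3 (0.126 and 0.12). FOXO1 was not called (-0.15), except with upper-quartile scaling (adjusted p = 0.0481). SPI1 had at most 5 reads in a library and RUNX3 had none.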
